A study of Sus scrofa with 10 samples.

Results

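Endothelial cells line blood and lymph vessels, and the 10 genes described here mark them: the vascular endothelial growth factor (VEGF) receptors KDR and FLT1, the angiopoietin receptor TEK and its partner TIE1, the junction proteins PECAM1 and CDH5, the guidance receptor ROBO4, the secreted clotting protein VWF, the surface sialomucin EMCN and the transcription factor ERG. They were chosen by gene name, and all 10 were found among the 27376 rows of a table of pig RNA counts. GF tissue came from germ cells and testicular fibroblasts injected together (4 libraries), and FO tissue from testicular fibroblasts alone (4 libraries). For both, the labels give a dorsal skin injection in Matrigel, in a mouse they spell SKID, and 6 months until the tissue was taken. Control testis (2 libraries) carries the code 5D in its titles, which the labels do not explain, so its age is not known here, and age and kind of tissue cannot be told apart in comparisons with it. Its other labels repeat the cells and injection of the grafts, so it was grouped by title. The labels give no age, sex or strain of the donor pigs and do not say whether replicates are separate animals or grafts, so p-values measure the spread between these libraries, which may be technical. The design asks whether the germ cells influence how testicular tissue is remodelled.

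New vessels form when VEGF, released by cells short of oxygen, acts on KDR of endothelial cells, while FLT1 binds VEGF and limits how much reaches KDR. Angiopoietins acting on TEK steady the vessel afterwards, CDH5 holds neighbouring endothelial cells together, and ERG, of the ETS family, keeps many endothelial genes active. In the testis, vessels run between the seminiferous tubules and supply the hormone-making Leydig cells. A graft in a mouse can be supplied by vessels of the host, of the graft or of both. Counting was against pig genes, so RNA of mouse endothelium could be lost or could add to a pig gene, and which species gave the reads was not tested. In bulk RNA, fewer endothelial cells and less RNA per cell cannot be told apart.

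Reads were counted at the 3′ ends of polyA transcripts, with total counts of 2915534 to 4917325 in GF, 4033509 to 4887878 in FO, and 5844944 and 7013911 in control testis. Values are CPM, counts relative to the library total after TMM scaling. A gene at 0 can lie anywhere below the value of 3 counts, which is 0.542 to 1.04 CPM in a single GF library, 0.629 to 0.836 CPM in FO and 0.453 to 0.495 CPM in control testis (counting error only). GF 3 and GF 4 had the lowest totals, 2915534 and 2948156. For 11 skeletal muscle genes the sum reached 334 CPM in GF 3, and 920.7 CPM in FO 1, but stayed between 26.3 and 112 CPM elsewhere. Of them, 4 were tested in GF versus FO, and TNNT1 rose (log2 fold change 3.28, edgeR adjusted p = 0.0031). The other 3 had log2 fold changes below 0 and did not pass, and the median of the 4 was -0.42. FO 1 was the highest graft library for 9 of the 11. Of 15 genes that mark germ, Sertoli, Leydig, smooth muscle and stromal cells, 14 had counts in control testis and PRM1, a sperm protamine, had none. In GF versus FO 8 of these 15 rose, among them the germ cell gene DDX4 (5.78, adjusted p = 5.53e-05), and 4 fell, among them the collagen gene COL1A2 (-1.55, adjusted p = 8.31e-04).

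All 10 endothelial genes had counts in both control libraries, in all 4 FO libraries and in at least 2 of the 4 GF libraries. Their counts summed to 401, 263, 185 and 243 in GF 1 to GF 4, against 506, 539, 593 and 1293 in FO 1 to FO 4, and 2060 and 2421 in the control libraries. As CPM these sums were 47.5 to 85.9 in GF, 117 to 274 in FO, and 340 and 366 in control testis, so that the ranges of the groups did not overlap. Without EMCN, the other 9 genes summed to 38.3 to 83.0 CPM in the GF libraries and 37.6 to 213.6 CPM in the FO libraries, which overlap, and to 327 and 351 CPM in control testis.

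**Figure D1:**
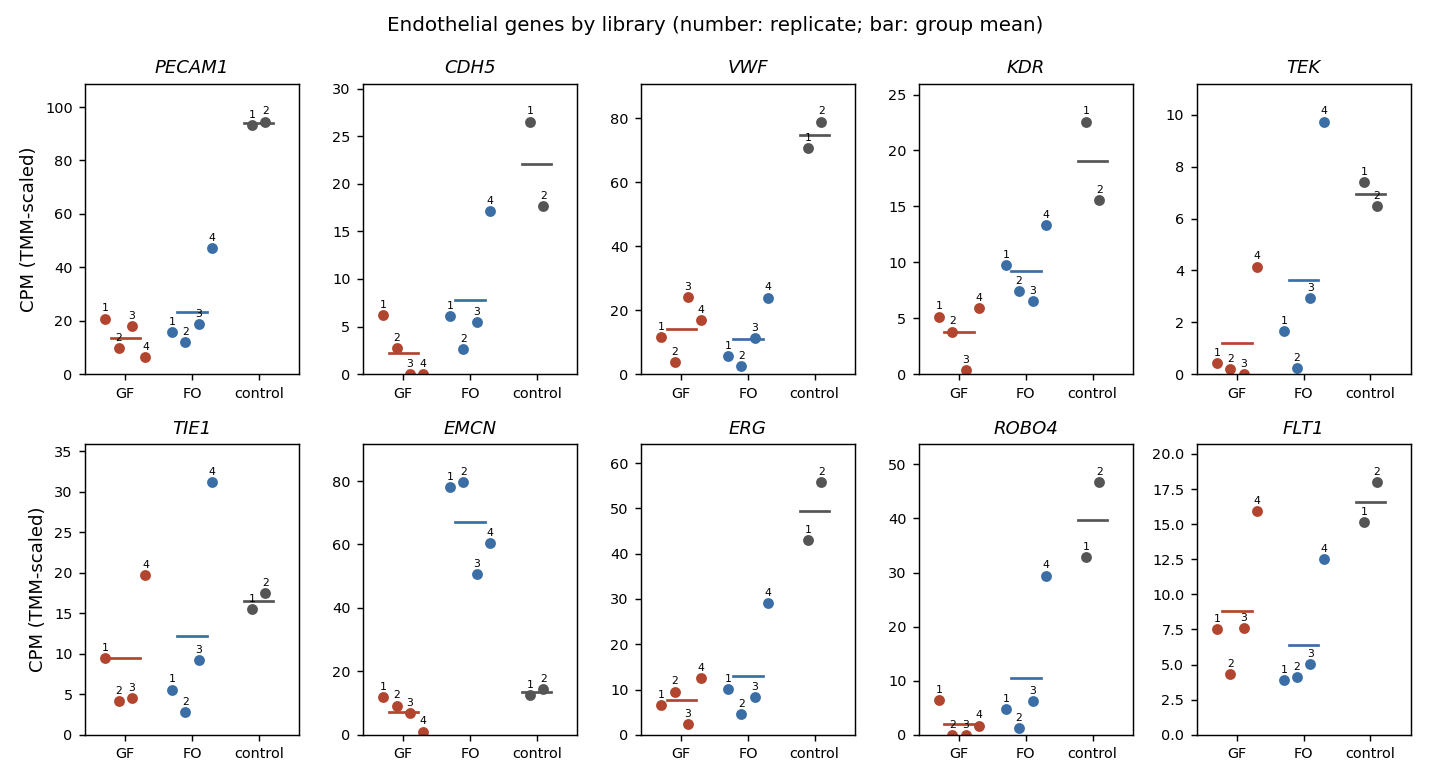
TMM-scaled CPM of each endothelial gene in GF, FO and control testis; each point is a library with its replicate number, and each bar is the group mean. FO 4 stands above the other graft libraries for 7 of the 10 genes, and EMCN is high in all 4 FO libraries.

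EMCN, endomucin, is a sialomucin of capillary and venous endothelium. It had 11.8, 9.21, 6.90 and 1.04 CPM in GF 1 to GF 4, against 78.0, 79.6, 50.5 and 60.4 CPM in FO 1 to FO 4, and 12.5 and 14.5 CPM in the control libraries. Every FO library lay above every GF library and above both control libraries, and all 4 GF libraries lay below both control libraries. The mean was 7.23 ± 4.59 CPM for GF and 67.1 ± 14.1 CPM for FO (SD, n = 4 each), a log2 fold change of -3.17 ± 0.48 (SE; adjusted p = 7.75e-04, edgeR). In FO it stood above control testis, at 67.1 ± 14.1 CPM (SD, n = 4) against 13.5 ± 1.40 CPM (SD, n = 2), a log2 fold change of 2.31 ± 0.57 (edgeR adjusted p = 0.0124). Between GF and control testis the log2 fold change of EMCN was -0.86 ± 0.52 and did not pass (edgeR adjusted p = 0.24). The call in GF versus FO was made without each of the 8 graft libraries in turn (adjusted p up to 0.00515). That of FO versus control was lost without control 1 (adjusted p = 0.125) or control 2 (0.114), each of which leaves 1 control library.

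Relative to the other 9 genes, EMCN was again highest in FO. It took 13.7, 19.4, 10.8 and 1.23% of the counts of the 10 genes in GF 1 to GF 4, against 55.3, 67.9, 40.6 and 22.04% in FO 1 to FO 4, and 3.69 and 3.97% in the control libraries. The exact 95% binomial intervals, which cover counting error only, run from 19.8 to 24.4% in FO 4, the lowest of FO, and from 14.8 to 24.7% in GF 2, the highest of GF, so those 2 libraries overlap. There were 0.567, 0.944, 0.385 and 0.167 EMCN counts for each PECAM1 count in GF 1 to GF 4, against 5.00, 6.65, 2.71 and 1.28 in FO 1 to FO 4, and 0.134 and 0.153 in the control libraries. Every FO library therefore held more EMCN than PECAM1 counts, and every GF and control library held fewer.

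**Figure D2:**
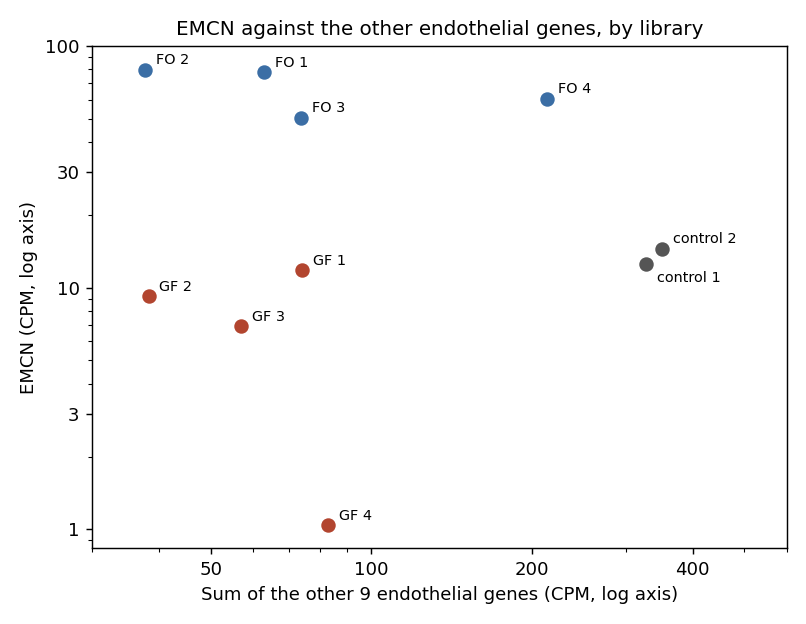
EMCN (vertical axis, CPM, log scale) against the summed CPM of the other 9 endothelial genes (horizontal axis, log scale), 1 point per library. The FO libraries lie at 50.5 to 79.6 CPM of EMCN across the whole width of the graft libraries, and the control libraries lie far to the right at 12.5 and 14.5 CPM of EMCN.

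Between GF and FO, EMCN was the 1 endothelial gene of 9 tested that passed, and it was lower in GF. The other 8 tested genes did not pass, and TEK was too low to be tested. Over all 13782 genes tested, 30.5% were called, 17.6% higher and 13% lower, so 1 call in 9 does not stand above that background. Of the 9, 7 had a negative log2 fold change and 2 a positive one, with a median of -0.77 against -0.02 for all genes. Genes enter the test through the group in which they are high, so these counts describe the tested genes and not all 10.

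The VEGF receptors KDR and FLT1 had log2 fold changes of opposite sign in GF versus FO, and neither passed. KDR, the main signalling receptor, had 5.14, 3.79, 0.345 and 5.88 CPM in GF 1 to GF 4, against 9.76, 7.40, 6.50 and 13.3 CPM in FO 1 to FO 4, and 22.6 and 15.6 CPM in the control libraries. Its GF and FO libraries did not overlap, as was so for 18.2% of all tested genes in the lower direction, yet it did not pass (log2 fold change -1.27 ± 0.62, edgeR adjusted p = 0.14). FLT1, the VEGF-binding receptor, had 7.50, 4.33, 7.59 and 15.9 CPM in GF 1 to GF 4, against 3.90, 4.13, 5.03 and 12.5 CPM in FO 1 to FO 4, and 15.2 and 18.0 CPM in the control libraries. Here GF and FO overlapped, with GF 4 and FO 4 the highest of their groups, and the log2 fold change was 0.45 ± 0.56 (edgeR adjusted p = 0.566). Without GF 3 and GF 4 it was -0.14.

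Of the angiopoietin receptors, TEK had 2, 1, 0 and 12 counts in GF 1 to GF 4, against 6, 1, 14 and 46 counts in FO 1 to FO 4, and 45 and 43 counts in the control libraries. With no filter on low counts its log2 fold change in GF versus FO was -1.70 ± 1.16 (edgeR adjusted p = 0.305). TIE1, its co-receptor, had 9.43, 4.15, 4.49 and 19.7 CPM in GF 1 to GF 4, against 5.57, 2.83, 9.23 and 31.1 CPM in FO 1 to FO 4, and 15.5 and 17.5 CPM in the control libraries. Library 4 of each graft group thus lay above both control libraries for TIE1 while the other 6 graft libraries lay below them. The log2 fold change of TIE1 was -0.38 ± 0.72 (edgeR adjusted p = 0.72), and without FO 4 it turned to 0.71 (adjusted p = 0.485).

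Among the junction genes, PECAM1, which is also made by platelets and leukocytes, had 20.8, 9.75, 18.0 and 6.22 CPM in GF 1 to GF 4, against 15.6, 12.0, 18.7 and 47.3 CPM in FO 1 to FO 4. Its mean was 13.7 ± 6.83 CPM for GF and 23.4 ± 16.2 CPM for FO (SD, n = 4 each), and it did not pass (log2 fold change -0.77 ± 0.50, edgeR adjusted p = 0.262). CDH5, the cadherin of endothelial junctions, had 29, 15, 0 and 0 counts in GF 1 to GF 4, against 22, 12, 26 and 81 counts in FO 1 to FO 4, and 161 and 117 counts in the control libraries. The 2 GF libraries at 0, GF 3 and GF 4, held 52 and 18 counts of PECAM1 and 70 and 49 of VWF, so these endothelial genes did not go up and down together within GF. CDH5 did not pass (log2 fold change -1.72 ± 0.98, edgeR adjusted p = 0.204).

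ROBO4, a receptor of the guidance family that is largely confined to endothelium, had 30, 0, 0 and 5 counts in GF 1 to GF 4, against 17, 6, 30 and 139 counts in FO 1 to FO 4, and 199 and 309 counts in the control libraries. It did not pass in GF versus FO (log2 fold change -2.31 ± 1.17, edgeR adjusted p = 0.153), but passed without GF 1 (-4.31, adjusted p = 0.0291). VWF, which captures platelets at wounds and is also stored in them, had 11.6, 3.79, 24.2 and 16.9 CPM in GF 1 to GF 4, against 5.57, 2.61, 11.3 and 23.9 CPM in FO 1 to FO 4, a log2 fold change of 0.37 ± 0.67 (edgeR adjusted p = 0.709). Its sign turned without GF 3 (-0.041). ERG had 6.64, 9.57, 2.42 and 12.4 CPM in GF 1 to GF 4, against 10.04, 4.57, 8.39 and 29.0 CPM in FO 1 to FO 4, a log2 fold change of -0.74 ± 0.62 (edgeR adjusted p = 0.384), which turned to 0.059 without FO 4. All 3 genes had overlapping graft groups.

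FO 4 stood apart from the other FO libraries in most of the genes other than EMCN. It was the highest graft library for 7 of the 10 endothelial genes (PECAM1, CDH5, KDR, TEK, TIE1, ERG and ROBO4), and it was the highest for 11.4% of all 13782 tested genes. Without FO 4 the median log2 fold change of the 9 tested endothelial genes in GF versus FO was -0.14, against -0.77 with it. Of a second list of 40 endothelial genes, FO 4 was the highest graft library for 23, and of the 10 pericyte genes measured, for 5. Leukocyte genes summed to 169.5 CPM in FO 4, against 55.5 to 104 CPM in the other FO libraries and 28.3 to 53.6 CPM in GF, and their part in these values was not tested. The haemoglobin gene HBB, at 19.9 CPM, was also higher in FO 4 than in the other graft libraries, which had up to 7.53 CPM. Red cell genes as a list did not single out FO 4, with a sum of 47.3 CPM there against 53.3 CPM in GF 2. Of the 7 red cell genes with counts in grafts, FO 4 was the highest for 3.

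Against control testis, GF held less of most of these genes. Of the 10 genes, all tested, 6 fell and 4 did not pass, where 25.8% of all 15877 genes were called, 11.8% lower and 14% higher. The median log2 fold change was -2.53 for the 10 genes and 0.03 for all genes. PECAM1 reached 20.8 CPM in GF 1, the highest of GF, against 93.3 and 94.6 CPM in the control libraries. It fell by 2.77 on the log2 scale (SE 0.52, edgeR adjusted p = 0.00199). ERG, at 7.77 ± 4.28 CPM (SD, n = 4) against 43.0 and 55.8 CPM, fell by 2.66 (adjusted p = 0.00765), and VWF, at 14.1 ± 8.60 CPM against 70.7 and 79.0 CPM, by 2.43 (adjusted p = 0.0186). ROBO4 (-4.21, adjusted p = 0.017), CDH5 (-3.18, adjusted p = 0.03) and KDR (-2.31, adjusted p = 0.0173) also fell.

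Besides EMCN, 3 genes did not pass in GF versus control. The mean of TIE1 was 9.44 ± 7.25 CPM for GF and 16.5 ± 1.43 CPM for control testis (log2 fold change -0.82 ± 0.79, edgeR adjusted p = 0.472). That of FLT1 was 8.83 ± 4.95 CPM for GF and 16.6 ± 1.99 CPM for control testis (-0.92 ± 0.59, edgeR adjusted p = 0.263). In both genes GF 4 lay above control 1. TEK had a log2 fold change of -2.64 ± 1.25 (edgeR adjusted p = 0.136), and it passed without GF 4 (-4.80, adjusted p = 0.0135). The GF and control libraries did not overlap for 8 of the 10 genes, all lower in GF, against 25.3% of all genes in that direction, and the exceptions were TIE1 and FLT1.

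The calls of CDH5, VWF, KDR and ROBO4 in GF versus control rested on both control libraries. That of ERG rested on control 2, and that of PECAM1 on neither alone. Without control 1 the called genes were PECAM1 and ERG, and without control 2 PECAM1 alone, with 6 genes at an unadjusted p under 0.05 in each case. Without GF 1, CDH5 moved to -4.30 and ROBO4 to -6.32.

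In FO against control testis, 3 of the 10 genes fell, 1 rose and 6 did not pass, where 18.7% of all genes were called, 10.6% lower and 8.12% higher. The median log2 fold change was -1.43, against -0.04 for all genes. VWF had a mean of 10.9 ± 9.44 CPM for FO (SD, n = 4) and of 74.9 ± 5.86 CPM for control testis (SD, n = 2), and fell by 2.77 (edgeR adjusted p = 0.0121). PECAM1, at 23.4 ± 16.2 CPM in FO, fell by 2.00 (adjusted p = 0.0144), and ERG, at 13.0 ± 10.9 CPM, by 1.92 (adjusted p = 0.0431). EMCN was the gene that rose. KDR (-1.04, adjusted p = 0.276), CDH5 (-1.49, adjusted p = 0.308), ROBO4 (-1.92, adjusted p = 0.235), FLT1 (-1.37, adjusted p = 0.123), TEK (-0.92, adjusted p = 0.646) and TIE1 (-0.43, adjusted p = 0.759) did not pass in edgeR.

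FO and control libraries did not overlap for 8 of the 10 genes, 7 of them lower in FO and EMCN higher, where 32% of all genes were apart in the lower and 26.7% in the higher direction. Without FO 4, PECAM1 moved to -2.61, VWF to -3.51 and ERG to -2.69, and FLT1 passed (-1.92, adjusted p = 0.0433). The call of ERG was lost without FO 1 (adjusted p = 0.113), FO 2 (0.0987) or FO 3 (0.108). Without control 1, 0 of the 10 genes passed in edgeR, with 4 at an unadjusted p under 0.05, and without control 2, 0 passed, with 3 at an unadjusted p under 0.05. GF versus control and FO versus control share the 2 control libraries, so they are not independent of each other.

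**Figure D3:**
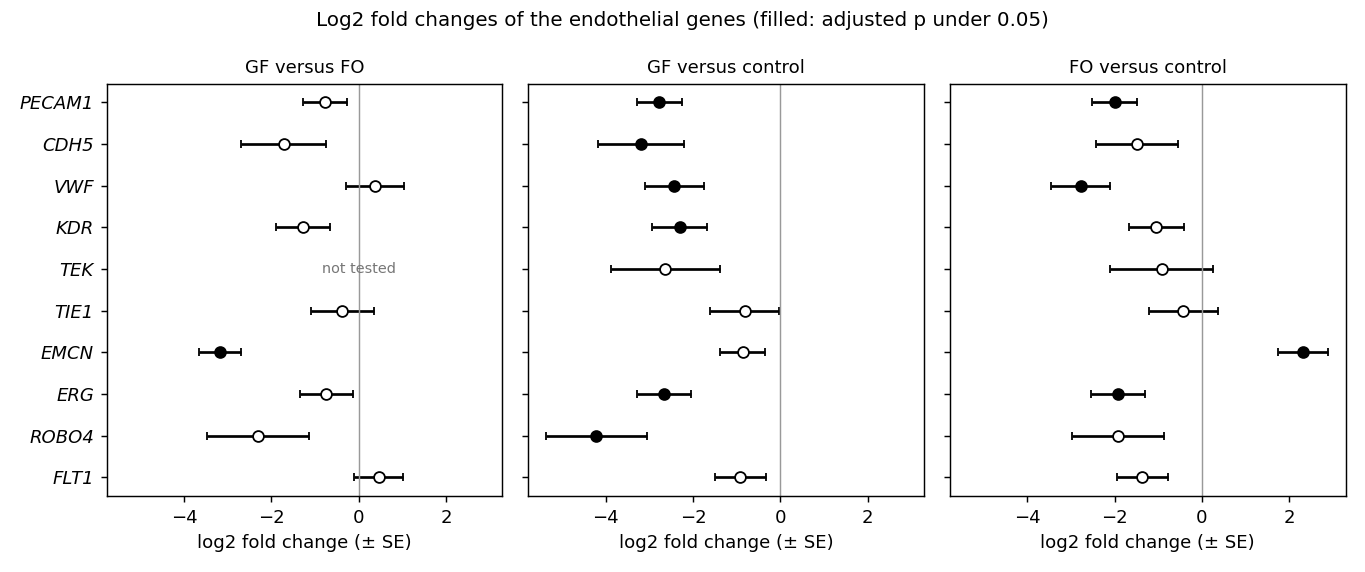
Log2 fold change with SE of each endothelial gene in GF versus FO, GF versus control and FO versus control; filled points had an edgeR adjusted p under 0.05. EMCN is the filled point in GF versus FO (-3.17) and the 1 filled point above 0 in FO versus control (2.31).

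The second list of endothelial genes holds 40 others. In FO versus control, 38 of the 40 were tested, 3 fell and 35 did not pass, with a median log2 fold change of -0.74. The number lower was 7 without FO 4, 2 without FO 1, 0 without control 1 and 1 without control 2. With the 10 genes added, 48 of 50 were tested, of which 1, EMCN, rose and 6 fell, where 8.12% of all genes were called higher and 10.6% lower. MMRN1, a clotting-factor-binding protein of endothelium and platelets (-3.97, edgeR adjusted p = 0.00771), TAL1, a blood and endothelial transcription factor (-3.55, adjusted p = 0.0153), and GIMAP4 (-3.50, adjusted p = 0.00424) were the 3 that fell, and none was called in all 6 fits without 1 FO or control library. MMRN1 was called in 4 of the 6 (adjusted p up to 0.0788 without control 2), TAL1 in 3 (up to 0.122 without control 1) and GIMAP4 in 5 (0.0692 without control 1). In GF versus control, 17 of the 38 fell and 21 did not pass, with a median of -1.91, where 11.8% of all genes were called lower. Without control 1 or control 2, 3 of them were called lower in each case, with medians of -1.94 and -1.85, and 9 were called lower with the libraries of both groups only. ROBO1 (-2.10, adjusted p = 7.91e-04), GIMAP4 (-6.26, adjusted p = 2.72e-04) and MMRN1 (-4.54, adjusted p = 0.00353) fell and were called without each GF and control library in turn. MMRN1 had 14, 2, 0 and 0 counts in GF 1 to GF 4, against 133 and 149 counts in the control libraries.

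In GF versus FO, 29 of the 40 were tested, 6 fell, 2 rose and 21 did not pass, with a median log2 fold change of -0.49. Over all genes 17.6% were called higher and 13% lower in that comparison. Without FO 4 the median was 0.11, with 2 genes lower and 2 higher, and without GF 4 it was -1.02, with 7 lower and 2 higher. The number lower was 3 without FO 1 or FO 3, and 4 without GF 2, GF 3 or FO 2 or with total counts alone. It was 7 with DESeq2. LMO2, a cofactor of TAL1, had 7.50, 5.42, 0.345 and 0.691 CPM in GF 1 to GF 4, against 26.8, 28.3, 22.4 and 21.4 CPM in FO 1 to FO 4, and 7.42 and 7.71 CPM in the control libraries. It fell by 2.74 (edgeR adjusted p = 0.00807; -3.34 without GF 1), and ROBO1, a Slit receptor also found outside vessels, fell by 1.46 (adjusted p = 0.00494). The water channel AQP1 rose, at 22.5, 30.3, 14.5 and 24.2 CPM in GF 1 to GF 4, against 6.41, 8.92, 10.3 and 9.32 CPM in FO 1 to FO 4 (log2 fold change 1.39, edgeR adjusted p = 0.00982). These 3 were called without each graft library in turn.

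The other 5 calls of this list did not hold without every library. For such calls, the highest adjusted p with 1 library left out is given with that library, and the number of the 8 fits without 1 graft library that made the call. NOS3, which makes nitric oxide in endothelium, rose, at 7.72, 11.4, 7.25 and 11.4 CPM in GF 1 to GF 4, against 0.279, 3.70, 1.05 and 3.39 CPM in FO 1 to FO 4 (log2 fold change 2.13, edgeR adjusted p = 0.0276; up to 0.0752 without FO 3, 5 of 8). CD34, of endothelium and stroma, fell by 1.29 (adjusted p = 0.015; up to 0.0629 without FO 4, 6 of 8). The anticoagulant receptors THBD (-2.27, adjusted p = 0.0358; up to 0.0952 without FO 1, 2 of 8) and PROCR (-3.00, adjusted p = 0.0199; up to 0.0658 without FO 4, 6 of 8) fell, as did the phosphatase PTPRB (-1.23, adjusted p = 0.0462; up to 0.156 without FO 4, 1 of 8). Without GF 1, THBD moved to -3.29 and PROCR to -4.02. With the replicate number as a block, PROCR (adjusted p = 0.0513) and PTPRB (0.0609) lost the call, while CALCRL (-2.70, adjusted p = 0.011; 0.0552 without the block), FLI1 (-4.38, adjusted p = 0.025) and NOSTRIN (-2.62, adjusted p = 0.0273; 0.0534 without the block) passed.

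A list of 10 genes holds ligands of VEGF, angiopoietin and apelin receptors and the angiopoietin-like gene ANGPTL4, which is not one of these ligands. All 10 were tested in GF versus FO, where 1 fell and 9 did not pass, with a median log2 fold change of -0.94. The share called lower over all genes was 13%. VEGFA had 14.4, 7.40, 4.14 and 4.15 CPM in GF 1 to GF 4, against 27.3, 15.9, 19.3 and 12.9 CPM in FO 1 to FO 4, and 27.5 and 22.4 CPM in the control libraries. It fell by 1.30 (edgeR adjusted p = 0.0497), and was called in 1 of the 8 fits without 1 library (adjusted p up to 0.173 without FO 1). VEGFA also lost the call with total counts alone (edgeR adjusted p = 0.102) and with no filter (0.0529). The same was so without GF 3 and GF 4 (0.107) and without FO 1 and GF 3 (0.244), but not with the replicate number as a block (0.0219). ANGPT2, the angiopoietin that loosens vessels, had a log2 fold change of -1.19 (adjusted p = 0.0677), VEGFD, a ligand of the lymphatic receptor FLT4, of -1.96 (adjusted p = 0.115) and ANGPTL4 of 1.09 (adjusted p = 0.0948). ANGPT2 passed with DESeq2 (adjusted p = 0.0306), with all 10 libraries in the edgeR fit (0.0381), without GF 4 (-1.54, 0.0168) and without GF 3 and GF 4 (-1.45, 0.0124). ANGPTL4 passed without GF 2 (1.39, edgeR adjusted p = 0.0195) and with all 10 libraries (0.0452). Against control testis, 5 of the 10 fell in GF and 3 in FO. ANGPT1, which activates TEK, fell to 5.30 ± 2.29 CPM in GF, and to 8.27 ± 0.812 CPM in FO (SD, n = 4 each), against 43.3 ± 0.329 CPM in control testis (SD, n = 2; edgeR adjusted p = 3.20e-04 and 0.00143). APLN, the ligand of the endothelial receptor APLNR, fell by 3.77 in GF and by 2.81 in FO against a mean of 77.5 ± 17.7 CPM in control testis (edgeR adjusted p = 1.91e-04 and 0.00119).

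Among coreceptors and modulators, 21 of 23 were tested in GF versus FO, 7 fell and 14 did not pass, with a median log2 fold change of -0.90. Of all tested genes, 13% were called lower there. The number lower was 2 without FO 1 or FO 2, and 3 without FO 3 or FO 4. It was 2 with total counts alone and 9 with DESeq2. With total counts alone FLT4 (edgeR adjusted p = 0.0576), PTPRB (0.0766), SEMA3A (0.052), SLIT3 (0.0654) and THBS2 (0.0842) lost the call. SLIT2, a guidance ligand that binds ROBO1, fell to 5.25 ± 3.16 CPM in GF, against 24.9 ± 3.78 CPM in FO (SD, n = 4 each; log2 fold change -2.20, edgeR adjusted p = 0.00315), and its relative SLIT3 fell by 0.90 (adjusted p = 0.0371; up to 0.136 without FO 4, 2 of 8). UNC5B, a netrin receptor that binds ROBO4, fell by 1.37 (adjusted p = 0.0104). FLT4, the VEGF receptor of lymphatic endothelium, had 3.00, 3.97, 0 and 0 CPM in GF 1 to GF 4, against 12.5, 10.9, 8.81 and 13.6 CPM in FO 1 to FO 4, and 7.91 and 10.4 CPM in the control libraries (-2.58, edgeR adjusted p = 0.0345; up to 0.0928 without FO 1, 4 of 8, and a fold change of -3.29 without GF 2). SEMA3A (-1.48, adjusted p = 0.0277; up to 0.0979 without FO 1, 4 of 8) and THBS2 (-0.98, adjusted p = 0.0363; up to 0.117 without FO 1, 1 of 8), both inhibitors of vessel growth, fell, and PTPRB is counted in this list as well. With the replicate number as a block, SLIT3 (adjusted p = 0.0553) lost the call and the VEGF coreceptor NRP1 (-1.11, adjusted p = 0.0472) passed.

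Of the genes of arterial, venous and lymphatic identity, 11 of 16 were tested in GF versus FO, 4 fell and 7 did not pass, where 13% of all genes were called lower. The median log2 fold change was -0.91 and ran from -1.22 without GF 4 to -0.62 without FO 4. NR2F2, a venous transcription factor that stromal cells also make, fell to 172 ± 51.4 CPM in GF, against 848 ± 207 CPM in FO (SD, n = 4 each; -2.30, edgeR adjusted p = 2.48e-04). PDPN, of lymphatic endothelium and fibroblasts, fell to 26.9 ± 12.3 CPM in GF, against 115.5 ± 31.4 CPM in FO (-2.09, edgeR adjusted p = 0.0011). The arterial connexin GJA5 had 4.72, 3.07, 1.73 and 1.38 CPM in GF 1 to GF 4, against 39.9, 15.7, 20.3 and 51.7 CPM in FO 1 to FO 4, and 4.12 and 2.57 CPM in the control libraries (-3.49 in GF versus FO, edgeR adjusted p = 6.88e-04). LYVE1, of lymphatic endothelium and macrophages, fell by 2.84 (adjusted p = 0.0497; up to 0.211 without FO 4, 2 of 8, where the fold change was -1.94). In FO versus control, GJA5 (3.24, adjusted p = 0.00398), NR2F2 (1.58, adjusted p = 0.0046) and PDPN (3.20, adjusted p = 3.50e-04) rose, of which PDPN was called without each FO and control library in turn, while GJA5 was called in 5 of those 6 fits (adjusted p 0.0822 without control 2) and NR2F2 in 4 (up to 0.0782 without control 2). The arterial factor HEY2 (-2.75, adjusted p = 0.0154; up to 0.17 without control 2, 4 of 6) and the chemokine CXCL12 (-2.94, adjusted p = 8.89e-06) fell in FO.

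Of the ETS and other vascular transcription factors, 12 of 16 were tested in GF versus FO, 1 rose, 1 fell and 10 did not pass, with a median log2 fold change of 0.27. The shares over all genes were 17.6% called higher and 13% lower. The median was 0.02 without GF 4, 0.075 without GF 1 and -0.48 without GF 3 and GF 4. KLF4 had 12.4, 18.6, 4.49 and 3.46 CPM in GF 1 to GF 4, against 41.0, 45.2, 38.6 and 38.6 CPM in FO 1 to FO 4, and 4.45 and 2.72 CPM in the control libraries, and fell by 2.03 (edgeR adjusted p = 0.0058). FOXO1 rose by 0.59 (adjusted p = 0.0491; up to 0.115 without FO 3, 1 of 8, and 0.0691 with the replicate number as a block). FLI1, the ETS factor closest to ERG, had 4.93, 0, 0 and 0 CPM in GF 1 to GF 4, against 8.08, 7.61, 7.34 and 17.8 CPM in FO 1 to FO 4 (-2.92, edgeR adjusted p = 0.0584). FLI1 passed with the replicate number as a block (adjusted p = 0.025), with all 10 libraries in the fit (0.0328) and without GF 1 (7.89e-04), which leaves GF libraries that are all at 0. ETS2 fell in both graft groups against control testis (-1.80 in GF and -2.16 in FO, edgeR adjusted p = 0.00235 and 8.37e-04).

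A list of 14 low-oxygen genes holds the oxygen-regulated factors EPAS1 and HIF1A beside genes induced by low oxygen. In GF versus FO, 13 were tested, 2 rose, 2 fell and 9 did not pass, where 17.6% of all genes were called higher and 13% lower. The 2 that rose were the factors EPAS1 (2.69, edgeR adjusted p = 0.0065; 3.47 without FO 4) and HIF1A (2.00, adjusted p = 0.035; up to 0.108 without GF 3, 2 of 8). Of the induced genes, NDRG1 (-1.84, adjusted p = 0.00326) and the vessel-widening peptide gene ADM (-1.94, adjusted p = 0.0409; up to 0.128 without FO 4, 2 of 8, and a fold change of -2.83 without GF 1) fell, and none was called higher. With the replicate number as a block HIF1A lost the call (adjusted p = 0.101) and P4HA1 passed (-1.32, adjusted p = 0.0125). Against control testis all 14 genes of the list were tested. For GF, 1 gene rose and 5 fell, with a median log2 fold change of -0.68. Without GF 2, 3 fell, and with the libraries of both groups only, 1 fell. The median was -0.62 without control 1 and -0.75 without control 2. For FO, 2 genes rose and 2 fell, with a median of -0.33. Over all genes 11.8% were called lower in GF and 10.6% in FO. CA9, a carbonic anhydrase, was higher in both graft groups, at 29.7 ± 20.2 CPM in GF and 20.1 ± 7.41 CPM in FO (SD, n = 4 each). Its log2 fold changes against control testis were 4.36 in GF and 3.80 in FO (edgeR adjusted p = 7.31e-04 and 0.00185).

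Other cells that carry some of these transcripts were checked by their own genes. Of the 10 pericyte genes in the table, 7 were tested in GF versus FO and 0 passed in edgeR and in DESeq2 (1, NOTCH3, at an unadjusted p under 0.05), with sums of 52.6 to 120 CPM in GF, 87.7 to 171 CPM in FO, and 256 and 299 CPM in control testis. PDGFRB, the receptor that draws pericytes to vessels, had a log2 fold change of -0.93 in GF versus FO (edgeR adjusted p = 0.123). PDGFRB was called without GF 1 (-1.26, adjusted p = 0.047). Against control testis, 3 of 8 tested pericyte genes fell in GF and 2 in FO. Without control 1 the count was 1 in each, and without control 2 it was 1 in GF and 0 in FO. It was 2 in GF without GF 2, and 1 in FO without any 1 of the FO libraries. Platelet genes, which matter for PECAM1 and VWF, summed to 8.67 to 14.2 CPM in GF, 7.84 to 15.9 CPM in FO, and 7.91 and 11.3 CPM in control testis, and 3 of the 9 were at 0 throughout each group. Of 3 platelet genes tested in GF versus FO, 0 passed in edgeR, with 0 at an unadjusted p under 0.05 and ITGB3 lowest (-1.55, adjusted p = 0.129). Leukocyte genes summed to 28.3 to 53.6 CPM in GF, 55.5 to 169.5 CPM in FO, and 305 and 318 CPM in control testis, so the sums stood in the same order as the group means of PECAM1, and their part in its values was not tested. Of the leukocyte genes, 7 were tested in GF versus FO, FCER1G fell (-2.69, edgeR adjusted p = 0.0376; up to 0.134 without FO 4, 2 of 8, 0.0535 with the replicate number as a block, and a fold change of -3.65 without GF 1) and 6 did not pass, of which TYROBP passed with the block (-1.12, adjusted p = 0.0383). Red cell genes summed to 10.4 to 53.3 CPM in GF, 12.4 to 47.3 CPM in FO, and 3180 and 4052 CPM in control testis, and HEMGN (1.26, adjusted p = 0.103) and AHSP (1.02, adjusted p = 0.169), the 2 tested in GF versus FO, did not pass, but HEMGN was called without GF 4 (1.64, adjusted p = 0.0103).

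**Figure D4:**
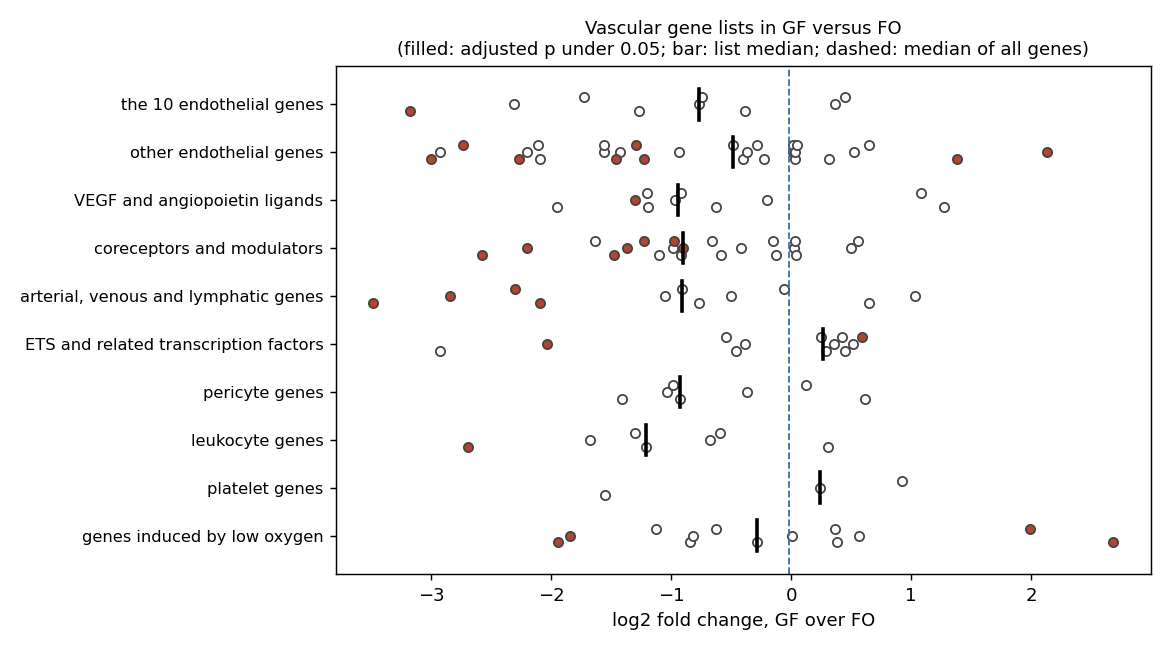
Log2 fold changes (GF over FO) of the tested genes of each list, with filled points at an edgeR adjusted p under 0.05, a bar at the list median and a dashed line at the median of all genes (-0.02). The 9 tested endothelial genes have a median of -0.77, with EMCN at the far left.

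The genes most like the 10 across libraries were sought by the root mean square difference between standardised log2 CPM profiles over the 10 libraries, set against the mean profile of the 10 genes. The nearest of 10220 candidates were the actin-bundling gene FSCN1 (0.293), ARAP3, a regulator of small GTPases (0.296), PGM5 (0.331), the pig class II antigen-loading gene SLA-DMB (0.340), TMEM204 (0.345) and the matricellular gene SPARCL1 (0.350), where the median candidate was at 1.14. ARAP3 had means of 4.61 ± 2.58 CPM in GF, 21.7 ± 24.4 CPM in FO (SD, n = 4 each) and 43.5 ± 4.24 CPM in control testis (SD, n = 2). SPARCL1 averaged 49.2 ± 13.1 CPM in GF, 121 ± 48.0 CPM in FO and 335 ± 61.7 CPM in control testis. Within the 10, ROBO4 (0.306) and ERG (0.385) lay closest to the mean profile and EMCN (1.09) farthest, with the other 7 between 0.425 and 0.692.

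EMCN was set against the same candidates after it was seen to stand apart. Its nearest genes were the collectin COLEC11 (0.0956), PPP2R3A (0.146), FERMT1, an epithelial integrin adaptor (0.155), the amino acid transporter SLC6A20 (0.184), FBXO25 (0.200) and ZBTB8A (0.206). COLEC11 averaged 2.00 ± 1.44 CPM in GF, 29.0 ± 7.48 CPM in FO and 3.52 ± 0.786 CPM in control testis. FERMT1 averaged 19.6 ± 9.21 CPM in GF, 91.3 ± 15.2 CPM in FO and 24.1 ± 2.94 CPM in control testis. None of the 6 was on the endothelial lists, but genes ranked lower are not given. The 10 endothelial genes were not candidates, nor were genes without a symbol or with an average log2 CPM under 3. Genes of the other lists could be candidates where they met these limits. Some list genes given above, such as LMO2 and GJA5, also had every FO library above every GF and control library. Which cells the EMCN reads came from was not tested.

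The genes lie on 8 chromosomes of Sscrofa11.1 by RefSeq. EMCN is on chromosome 8 at 120174091 to 120227971 and shares that chromosome with KDR, at 41809116 to 41856379. CDH5 (27108560 to 27142145) and TIE1 (167919662 to 167947253) are both on chromosome 6. PECAM1 is on chromosome 12 (14667643 to 14723296), VWF on chromosome 5 (64516627 to 64655938), TEK on chromosome 1 (195938177 to 196052294) and ERG on chromosome 13 (201999237 to 202302572). ROBO4 is on chromosome 9 (52083757 to 52097784) and FLT1 on chromosome 11 (5620698 to 5797095). All 10 are annotated as protein coding.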

How the data were processed

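RNA was extracted with Trizol and made into QuantSeq 3′ mRNA libraries, per the labels' protocols. The authors deposited raw counts per gene name; Sscrofa11.1 and DESeq2 1.42.0 are named in the submitters' processing notes without a role, with aligner, counter and strand setting not given in the sources used here. GF versus FO was fitted on the 8 graft libraries and both comparisons with control testis on all 10, with edgeR 4.0.16 in R 4.3.3 (TMM, filterByExpr with a minimum count of 10, robust quasi-likelihood test, Benjamini-Hochberg over all tested genes, threshold 0.05). Simulated data held known changes in far fewer genes than were called here. In them edgeR made few false calls, missed most 2-fold changes and found 4-fold changes more often. Those rates may not carry over to the real data, and a gene that did not pass may still differ. SEs are the log2 fold change over the root of F. The labels do not pair GF with FO by replicate number, and the data do not establish it. Deviations of libraries with the same number correlated weakly (0.105, 0.258, 0.117 and 0.114 for GF 1 to GF 4). GF 1 correlated best with FO 2 (0.132) and GF 4 with FO 3 (0.149). Block values stand beside results they change and rest on this unproven pairing. No 2 libraries of the same group agreed within sampling noise. Chi-square per degree of freedom over genes was 11.8 between GF 1 and GF 2 and 22.7 between GF 3 and GF 4. Across these pairs it was 50.6 to 58.9, while within FO it was 10.0 to 18.9. GF means and SDs therefore span libraries that split into these pairs. The named genes are the 10, list genes called in GF versus FO or with the lowest p there, and the 6 most alike, with other list genes added after their values were seen. The 10 genes and the lists were chosen with earlier results of these data known. Locations come from RefSeq. Alternatives were DESeq2, other size factors, no filter, other fits and leaving out libraries.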

Additional observations from a re-analysis of the deposited data

Results flagged for a closer look

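In groups of 4 libraries, a value is listed here where 1 library lay far from the other 3 relative to the range of the group (above Dixon's 95% critical value). Of 24 groups of values examined, 3 met this, where chance gives about 1 in 20. TEK had 4.15 CPM in GF 4, and GF 1 to GF 3 had 0 to 0.429 CPM. FLT1 had 12.5 CPM in FO 4, against 3.90 to 5.03 CPM in the other FO libraries. The 10 endothelial genes summed to 274 CPM in FO 4, against 117 to 141 CPM in the other FO libraries.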

How the results depend on the processing

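EMCN was called lower in GF than in FO in all 17 alternatives, with log2 fold changes of -3.49 to -2.68. Signs turned in GF versus FO, none of them in a called gene, for VWF without GF 3 (-0.041), without GF 3 and GF 4 (-0.54) and without FO 1 and GF 3 (-0.25), FLT1 without GF 3 and GF 4 (-0.14), and TIE1 (0.71) and ERG (0.059) without FO 4. With 1 library left out VWF ran from -0.041 to 1.14, TIE1 from -0.995 to 0.71 and ERG from -1.02 to 0.059. Called genes over the whole table, leaving out 1 library, numbered 2645 to 4677 in GF versus FO (4205 in full), 1147 to 4715 in GF versus control (4091) and 819 to 2263 in FO versus control (2972). Of the 10 endothelial genes these fits called 1 to 2, 1 to 7 and 0 to 5, against 1, 6 and 4 in full. A lone control library is assumed there to vary like the other groups. Without FO 1 and GF 3, 2265 genes were called in GF versus FO. With the libraries of both groups only, 2185 were called in GF versus control and 6738 in FO versus control. There CDH5 (adjusted p = 0.0944) and KDR (0.0783) lost the call in GF versus control and ERG (0.0802) in FO versus control, while KDR (0.0176) and FLT1 (0.0158) passed in FO versus control. ROBO4 lost its call in GF versus control with DESeq2 (0.0508), no filter (0.0646) or without GF 3 and GF 4 (0.16), where TEK (0.0158) and FLT1 (0.0323) passed. Without FO 1 and GF 3, CDH5 lost its call in GF versus control (0.0559) and ERG in FO versus control (0.0732). Scaling by total counts alone gave 2790 higher and 1249 lower calls in GF versus FO, against 2419 and 1786, and moved the median of all genes to 0.13. Among the list genes that then lost the call were ADM (edgeR adjusted p = 0.0687), FCER1G (0.0576), LYVE1 (0.0576) and THBD (0.0637). The replicate block gave 4335 calls in GF versus FO (EMCN -3.35, edgeR adjusted p = 4.76e-04) and changed no call of the 10 genes there. Like the pairing of GF with FO, a pairing of grafts with control testis by number was not shown. There the block gave 3282 calls for GF, with TEK (edgeR adjusted p = 0.00764) and TIE1 (0.0386) passing. For FO it gave 3219 calls, with FLT1 (0.0162) passing. The causes of these changes were not tested. Counts of 0 to 12 for TEK in GF and 0 to 30 for ROBO4 and CDH5 limit what differences between grafts could be detected.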
